A study of Homo sapiens with 15 samples.

Results

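The genes described here encode the subunits of the IL-12 and IL-23 cytokine family: IL12A, IL12B, IL23A, EBI3 and IL27. They are 5 of the 60286 genes of the count table, and were taken by symbol, the family having been selected on the levels of IL12B and IL23A, which were among those that differed most between cells stimulated with *E. coli* and with *S. aureus* bacterial extracellular vesicles (BEVs). The size of that species difference is therefore given as a description only. RNA was sequenced from THP-1 cells, an established human monocytic leukaemia line with no stated genetic change. In 15 libraries, 3 per group, cells had received PBS (the non-stimulated control, NC), *E. coli* BEVs at 1 μg/mL or *S. aureus* BEVs at 10 μg/mL. The BEVs had been collected by ultracentrifugation (UC; groups EUC and SUC) or with ϵ-poly-L-lysine (PL; groups EPL and SPL). Cells were incubated for 6 hours, whereas the deposited labels carry day 0 for every library. Species and dose changed together, so they cannot be told apart. The sources do not say that the 3 libraries of a group came from separate cultures, so p-values measure only the spread between these libraries, which may be technical.

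The cytokines of this family are pairs of subunits. One partner is a helical alpha subunit (IL12A or p35, IL23A or p19, IL27 or p28) and the other a beta subunit that resembles a soluble cytokine receptor (IL12B or p40, and EBI3). IL12B pairs with IL12A to form IL-12 and with IL23A to form IL-23. EBI3 pairs with IL27 to form IL-27 and with IL12A to form IL-35. Monocytes, macrophages and dendritic cells make IL-12 and IL-23 after they sense bacterial products, IL-12 being known for driving interferon-gamma production by T and NK cells and IL-23 for maintaining IL-17-producing T cells. Both partners are needed for secretion of IL-12 and IL-23, so RNA of the single subunits does not measure the cytokines.

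In GENCODE release 44 on hg38, IL12B (ENSG00000113302) lies at chr5:159314780-159330863 on the minus strand and IL23A (ENSG00000110944) at chr12:56334174-56340410 on the plus strand. EBI3 (ENSG00000105246) lies at chr19:4229523-4237528 on the plus strand, IL27 (ENSG00000197272) at chr16:28499362-28512051 on the minus strand and IL12A (ENSG00000168811) at chr3:159988835-159996019 on the plus strand. The genes thus sit on different chromosomes.

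The RefSeq promoter table (GRCh38.p14) matched 4 of the 5 genes, all except IL27. For these, the 250 bases before the start site were searched on both strands for a loose NF-kappa B motif (GGG and CC with any 5 bases between), for TGANTCA (AP-1), for the interferon-stimulated response element (GAAA and GAAA with any 2 bases between) and for TATAAA (the TATA box). The windows of EBI3 and IL23A, which rose to the highest levels, are shown with that of IL12A, which did not rise. Letters in capitals mark a match to one of these motifs on either strand, and neighbouring or overlapping matches run together. They are EBI3 at chr19:4229273-4229522 (plus strand), IL23A at chr12:56338634-56338883 (plus strand) and IL12A at chr3:159988585-159988834 (plus strand):
EBI3: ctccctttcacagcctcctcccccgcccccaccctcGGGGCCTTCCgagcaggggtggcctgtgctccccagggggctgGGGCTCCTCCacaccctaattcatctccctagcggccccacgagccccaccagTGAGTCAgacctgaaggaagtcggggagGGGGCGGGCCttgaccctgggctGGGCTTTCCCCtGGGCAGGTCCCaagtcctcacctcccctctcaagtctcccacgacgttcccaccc
IL23A: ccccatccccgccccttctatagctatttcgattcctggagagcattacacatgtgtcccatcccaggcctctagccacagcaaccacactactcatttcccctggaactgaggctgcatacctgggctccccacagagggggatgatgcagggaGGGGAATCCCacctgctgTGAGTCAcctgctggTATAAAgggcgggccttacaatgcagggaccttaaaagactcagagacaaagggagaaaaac
IL12A: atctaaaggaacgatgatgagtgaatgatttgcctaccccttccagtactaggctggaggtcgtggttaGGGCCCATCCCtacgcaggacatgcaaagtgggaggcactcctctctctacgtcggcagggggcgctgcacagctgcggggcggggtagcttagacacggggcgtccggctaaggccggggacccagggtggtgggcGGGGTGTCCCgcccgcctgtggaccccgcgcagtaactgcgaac

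The IL23A window held GGGGAATCCC starting 95 bases before the start site, TGAGTCA at 77 bases and TATAAA at 62 bases. The EBI3 window held TGAGTCA at 118 bases and matches to the NF-kappa B letters between 214 and 54 bases before the start. The IL12A window held matches to the NF-kappa B letters only, at 181 and 180 bases and at 44 bases. The IL12B window (chr5:159330488-159330737, minus strand) held none of the 4 motifs as spelled here. Its letters are not shown because longer GENCODE transcripts of IL12B include it in their first exon. The IL23A window also lies inside the span of its GENCODE gene, which starts upstream at 56334174, and falls in an intron of its longer transcripts. Of 35116 RefSeq windows of this length, 54.4% held the NF-kappa B letters, 6.57% the AP-1 motif, 10.7% the TATA box and 3.02% the interferon-stimulated response element. A match is a run of letters and not evidence of binding.

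Depth was similar throughout, from 14399421 to 16637345 counted reads. EUC3, EPL1 and SUC3 each differed more from the other libraries of their group than those did from each other (chi-square of the counts per degree of freedom of 14.3 to 42.6 against 2.73 to 6.72), and results are also given without these 3. The summed level of 7 monocyte markers was 918 to 934 CPM (counts scaled to a common library size) in NC and 1398 to 1931 CPM in stimulated libraries, a sum made up mostly of SPI1 (471 CPM in NC and 960 to 1198 CPM in the BEV groups, as means) and CSF1R. The list had a median log2 fold change of -0.15, with SPI1 and CD14 up-regulated, MPO down-regulated (-1.37) and 4 markers not DEGs. T cell markers summed to between 0.064 and 0.986 CPM, with 3 or 4 of the 5 at 0 in each group. TRAC, the only T cell marker that could be tested, was up-regulated in the mean of the BEV groups (log2 fold change 2.08, adjusted p = 0.00354 by edgeR). It was a DEG in EUC and SUC but not in EPL (edgeR adjusted p = 0.0371) or SPL (0.0602). TRAC held 6 reads in NC in all and 2 to 15 in each stimulated library. Markers of B cells summed to 1.38 to 5.42 CPM and those of NK cells to 7.69 to 13.5 CPM. Since RNA came from whole cultures, fewer expressing cells and less RNA per cell cannot be told apart in any value below.

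IL12B, EBI3 and IL23A were strongly up-regulated by BEVs of both species and both isolation methods, whereas IL27 and IL12A were low in every group. A DEG was a gene that changed by 1 log2 unit or more in either direction with an adjusted p no higher than 0.01 (edgeR's quasi-likelihood test, Benjamini-Hochberg adjustment over 17198 genes). Of the 5 members, 4 could be tested. IL12A did not pass the filter on low counts, and IL12B, EBI3 and IL27 passed it only through their stimulated libraries. Since the filter kept IL12B, EBI3 and IL27 for their stimulated levels, their p-values and ranks against NC are not independent of it. In each BEV group, 3 of the 4 tested members were up-regulated DEGs. Of all tested genes, 9.43% were up-regulated in EUC and 9.38% in EPL, beside 6.82% in SUC and 7.76% in SPL, each against NC. For the mean of the 4 BEV groups against NC the members again gave 3 up-regulated DEGs, beside 8.99% of all tested genes. All 4 comparisons share the 3 NC libraries, and their stimulated libraries are those on which the family was selected. The member counts are thus not those of genes chosen without regard to these data.

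**Figure D1:**
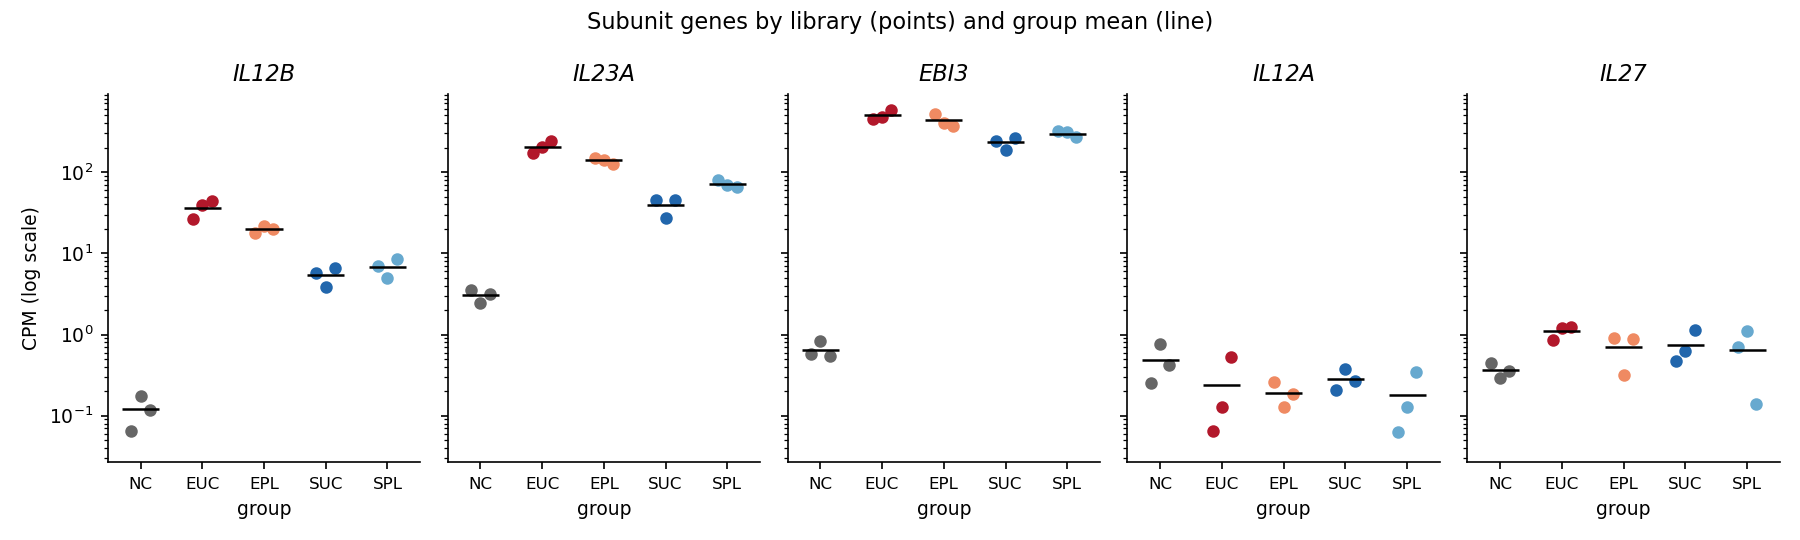
Level of each subunit gene in CPM on a log scale, by group. Each point is 1 library and each line the mean of 3 libraries. IL12B, IL23A and EBI3 lie above NC in all 12 stimulated libraries, and higher in EUC and EPL than in SUC and SPL, while IL12A and IL27 stay near or below 1 CPM.

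IL12B, the beta subunit shared by IL-12 and IL-23, was nearly absent from non-stimulated cells. The NC libraries held 1, 3 and 2 reads. The EUC libraries held 406, 609 and 663 reads and the EPL libraries 269, 343 and 319. The SUC libraries held 83, 62 and 100 reads and the SPL libraries 108, 78 and 125. No stimulated library overlapped with NC (all 12 stimulated libraries were above all 3 NC libraries for 17.5% of all tested genes), and the *E. coli* libraries were all above the *S. aureus* libraries. In CPM, the level was 0.12 ± 0.056 (SD, n = 3) in NC, 36.3 ± 8.90 in EUC and 19.8 ± 2.11 in EPL, beside 5.38 ± 1.39 in SUC and 6.85 ± 1.80 in SPL. Because NC held only 6 reads of IL12B in all, the ratio of normalized counts was imprecise: it was 299 in EUC (95% exact interval 137 to 816, counting error only), 163 in EPL (74.7 to 446), 44.1 in SUC (19.9 to 121) and 56.1 in SPL (25.5 to 154). The fitted log2 fold change of the BEV groups' mean was 6.62 (SE 0.378, adjusted p = 1.77e-10 by edgeR).

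EBI3, the beta subunit of IL-27 and IL-35, showed the largest rise and the highest level of the 5 genes. It held 9, 14 and 9 reads in NC. The EUC libraries held 6874, 7457 and 8779 reads and the EPL libraries 8022, 6352 and 5946. The SUC libraries held 3555, 3033 and 4015 reads and the SPL libraries 4983, 4812 and 3869. The lowest stimulated library, a SUC library, was thus far above the highest NC library. The mean level was 0.645 ± 0.156 CPM (SD, n = 3) in NC, 501 ± 68.0 in EUC and 434 ± 81.6 in EPL, beside 233 ± 38.8 in SUC and 298 ± 27.7 in SPL. Against NC the fitted log2 fold changes were 9.58 in EUC and 9.37 in EPL, beside 8.47 in SUC and 8.83 in SPL. Their mean was 9.06 (SE 0.228, adjusted p = 6.51e-15 by edgeR), which ranked EBI3 14th among the 14526 tested genes with a mean of at least 1 CPM, beside ranks of 56 for IL12B and 119 for IL23A. These ranks are a description, as EBI3 and IL12B passed the filter only through their stimulated libraries.

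IL23A, the alpha subunit of IL-23, was the only member with a clear level in non-stimulated cells. The NC libraries held 55, 42 and 53 reads, or 3.05 ± 0.533 CPM (SD, n = 3). The EUC libraries reached 173, 201 and 240 CPM (205 ± 34.0) and the EPL libraries 151, 143 and 126 CPM (140 ± 12.5). The SUC libraries reached 45.4, 27.2 and 45.9 CPM (39.5 ± 10.7) and the SPL libraries 79.2, 70.1 and 64.9 CPM (71.4 ± 7.25). The 5 groups did not overlap with each other, in the order EUC, EPL, SPL, SUC and NC. The share of all genes that did so is not given, so this is a description only. The order of the species also restates the values on which IL23A was selected. The fitted log2 fold changes against NC were 6.07 in EUC and 5.52 in EPL, beside 3.70 in SUC and 4.55 in SPL. For the mean of the BEV groups it was 4.96 (SE 0.202, adjusted p = 2.04e-12 by edgeR).

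IL27, the alpha subunit of IL-27, stayed low. The NC libraries held 7, 5 and 6 reads, the EUC libraries 13, 19 and 19, the EPL libraries 14, 5 and 14, the SUC libraries 7, 10 and 17, and the SPL libraries 11, 17 and 2. In CPM, all EUC and SUC libraries were above all NC libraries, although the lowest SUC library (0.478 CPM) was close to the highest NC library (0.448 CPM). EPL and SPL overlapped with NC. The log2 fold change in EUC was 1.58 (SE 0.558, adjusted p = 0.0318 by edgeR), which did not reach the threshold for DEGs. For the mean of the BEV groups it was 1.08 (95% interval 0.067 to 2.1, adjusted p = 0.0771).

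IL12A, the alpha subunit of IL-12 and IL-35, was also low and did not rise. The NC libraries held 4, 13 and 7 reads, the EUC libraries 1, 2 and 8, the EPL libraries 4, 2 and 3, the SUC libraries 3, 6 and 4, and the SPL libraries 1, 2 and 5. Each BEV group overlapped with NC. An exact permutation test of log2 CPM over libraries, 12 stimulated against 3 NC and two-sided, was added after IL12A had failed the filter, and gave a difference of -0.80 with p = 0.0528 (0.0633 adjusted over 6 genes; 455 ways, smallest possible p 0.0022). The fit without the filter gave a log2 fold change of -1.10 (SE 0.567, edgeR adjusted p = 0.177 over 37067 genes). Its p-values for IL12A equal those of a normal test of the estimate over its SE. P-values of that fit may therefore take little account of each gene's own spread between libraries. IL12A-AS1, a long non-coding RNA on the opposite strand that shares 78 exonic bases with IL12A, held 54 reads in NC in all and 17, 17, 30 and 19 reads in EUC, EPL, SUC and SPL. All 12 stimulated libraries were below all 3 NC libraries for IL12A-AS1 (16.1% of all tested genes did so), with an exact permutation p of 0.022 (0.033 adjusted over 6 genes). The library kit does not mark strand, so reads from the shared bases cannot be assigned to either gene.

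**Figure D2:**
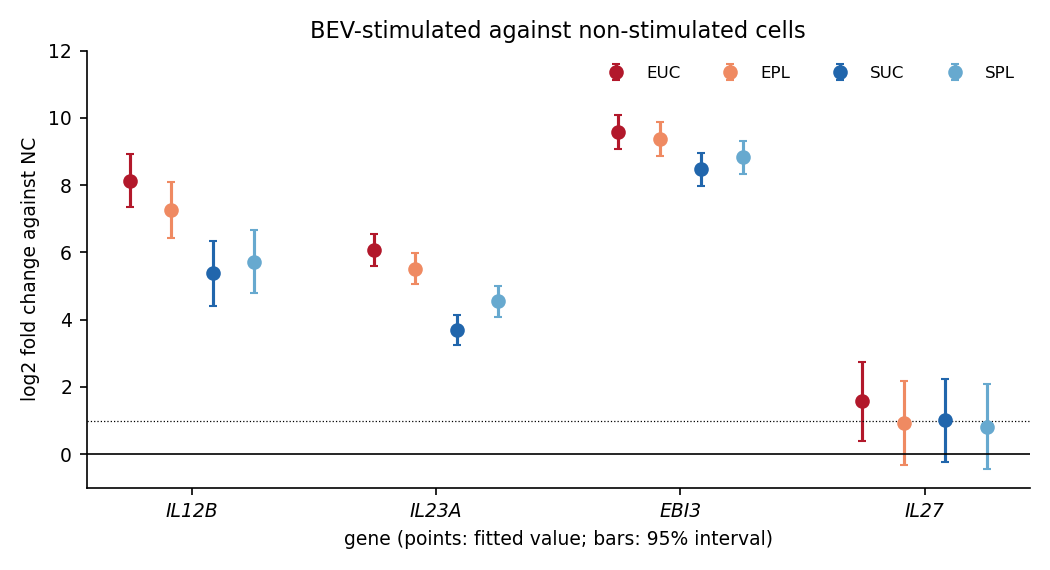
Fitted log2 fold change of the 4 testable subunit genes in each BEV group against NC, with 95% intervals, and a dotted line at the DEG threshold of 1. IL12B, IL23A and EBI3 lie well above the line in all 4 groups, and the IL27 intervals reach below it in each.

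No other member shares exonic bases with an overlapping gene in GENCODE. The IL12B locus lies within ENSG00000249738, a long non-coding RNA on the opposite strand that shares no exonic base with it. That gene held 19 reads in NC, 217 in EUC and 232 in EPL, beside 90 in SUC and 137 in SPL. RNU4ATAC2P, a small nuclear RNA pseudogene within the IL12B locus, held 0 reads in NC and between 1 and 4 in each BEV group.

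The levels of the subunits were then compared with each other after division by exon length, in CPM per kb of the union of annotated exons. In the BEV groups the order of mean levels was the same, with EBI3 highest, followed by IL23A, IL12B, IL27 and IL12A. In EUC these levels were 399 ± 54.1 for EBI3 (SD, n = 3), 174 ± 28.9 for IL23A, 11.8 ± 2.89 for IL12B, 0.869 ± 0.177 for IL27 and 0.123 ± 0.128 for IL12A. In SUC they were 185 ± 30.9, 33.6 ± 9.04, 1.75 ± 0.45, 0.584 ± 0.266 and 0.144 ± 0.044 in the same order. The lowest library for each of EBI3, IL23A and IL12B was above the highest library of the next gene in every BEV group, while IL27 and IL12A overlapped in SPL. In NC the order began with IL23A (2.59 ± 0.453) and ended with IL12B (0.039 ± 0.018).

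Partners of the same cytokine were thus found at unequal RNA levels. For IL-23, the level of IL23A per kb was 15.0 ± 1.89 times that of IL12B in EUC (SD, n = 3), 18.7 ± 3.20 in EPL, 19.2 ± 1.54 in SUC and 28.7 ± 8.48 in SPL. In NC it was 83.2 ± 54.9 times, where IL12B held only 1 to 3 reads per library. For IL-27, EBI3 was 466 ± 68.9 times IL27 in EUC and 765 ± 457 in EPL, beside 353 ± 143 in SUC and 900 ± 919 in SPL, against 1.88 ± 0.829 in NC. For IL-12, IL12B was 168 ± 105 times IL12A in EUC and 13.3 ± 5.93 times in SUC, and below IL12A in NC (0.162 ± 0.018 times). The ratios with IL27 or IL12A rest on few reads of the rarer subunit, and differences between BEV groups in these ratios were not tested.

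**Figure D3:**
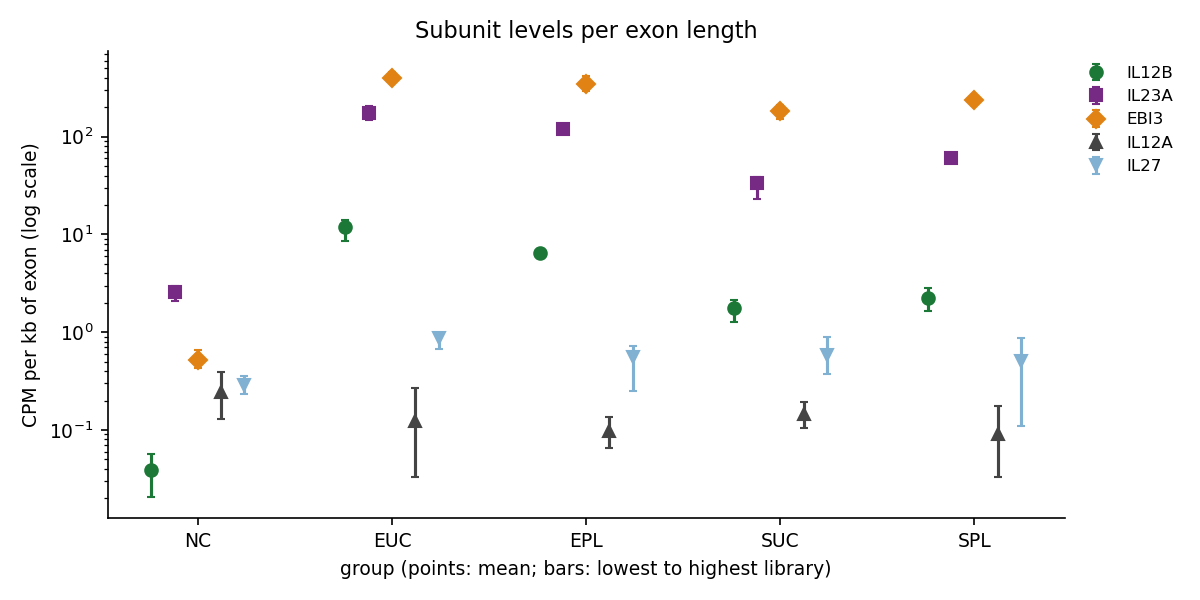
Mean level of each subunit gene in CPM per kb of exon, on a log scale, in each group of 3 libraries, with bars from the lowest to the highest library. EBI3 is highest and IL23A second in all 4 BEV groups, and in EUC they stand at 399 and 174 CPM per kb beside 11.8 for IL12B.

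Between the species, IL12B and IL23A had the largest ratios of the 5 genes. These values chose the genes and are a description without a test. The mean of the 6 *E. coli* libraries was 4.59 times that of the 6 *S. aureus* libraries for IL12B (28.1 against 6.11 CPM), 3.11 times for IL23A (172 against 55.5 CPM) and 1.76 times for EBI3 (467 against 265 CPM). In all 3 genes the 6 *E. coli* libraries were above the 6 *S. aureus* libraries, as in 3.05% of all tested genes. By the fitted difference, IL12B ranked 3rd, IL23A 25th and EBI3 337th of 17198 genes. IL27 ranked 1718th, with a ratio of 1.3, and IL12A had a ratio of 0.939, both with overlapping libraries. The ratio was larger with UC than with PL BEVs. It was 6.75 for EUC to SUC and 2.89 for EPL to SPL in IL12B, 5.18 and 1.96 in IL23A, and 2.15 and 1.46 in EBI3.

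The study asked whether BEVs isolated by the 2 methods act alike on cells. In *E. coli* BEVs, 0 of the 4 tested members were DEGs between EPL and EUC, as were 0% of all tested genes, although 3.51% had an unadjusted p of at most 0.05. DESeq2 also called 0 members. IL12B was lower in EPL, with a log2 fold change of -0.88 (95% interval -1.28 to -0.47, unadjusted p = 0.000325, edgeR adjusted p = 0.947), and all 3 EPL libraries were below all 3 EUC libraries. IL23A was lower by -0.55 on the same scale (-0.89 to -0.21, unadjusted p = 0.0036, edgeR adjusted p = 0.947), also without overlap. EBI3 differed by -0.21 (-0.50 to 0.09) and IL27 by -0.64 (-1.73 to 0.44), both with overlapping libraries. None of these passed the adjusted threshold. The share of all genes without overlap between 3 and 3 libraries is not given, so such non-overlap is a description only wherever it is named. Without the filter on low counts, the edgeR adjusted p was 1.41e-05 for IL12B (-0.88) and 0.00372 for IL23A (-0.56), which then missed only the fold threshold. The limit on p-values of that fit, given for IL12A, holds for both. The intervals leave room for differences of more than 1 log2 unit in IL12B and IL27.

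In *S. aureus* BEVs, 0 of the 4 tested members were DEGs between SPL and SUC, beside 0.00581% of all tested genes, and 5.81% of all genes had an unadjusted p of at most 0.05. DESeq2 called 0 members here too. IL23A was higher in SPL, with a log2 fold change of 0.85 (95% interval 0.50 to 1.21, edgeR adjusted p = 0.451), and the groups did not overlap. DESeq2 gave 0.86 with an adjusted p of 0.0077, below the fold threshold. EBI3 was higher by 0.36 (0.06 to 0.66, unadjusted p = 0.0214, edgeR adjusted p = 0.814), also without overlap. IL12B differed by 0.35 (-0.15 to 0.85) and IL27 by -0.18 (-1.34 to 0.97), with overlapping libraries. Without EUC3, EPL1 and SUC3, IL23A differed by 0.98 with an edgeR adjusted p of 0.00042, again under the fold threshold. Without the filter on low counts its value was 0.84, with an edgeR adjusted p of 5.84e-10, under the same limit on that fit.

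The fitted PL minus UC difference was negative in *E. coli* and positive in *S. aureus* BEVs for IL12B, IL23A and EBI3. Its 95% interval included 0 for EBI3 in *E. coli* BEVs (-0.50 to 0.09) and for IL12B in *S. aureus* BEVs (-0.15 to 0.85). The test of the contrast between the species itself depended on the tool, the libraries and the filter on low counts. The same libraries gave the species differences on which the family was selected, so the tests between methods may not be independent of that choice. With edgeR on all 15 libraries and the filter, 0 of the 4 members and 0% of all tested genes were called, while 3.83% of genes had an unadjusted p of at most 0.05. The *E. coli* minus *S. aureus* value was -1.40 for IL23A (95% interval -1.90 to -0.91, unadjusted p = 1.64e-05, edgeR adjusted p = 0.0939). DESeq2 gave -1.41 with an adjusted p of 0.000129 and called IL23A, among 3 genes in all. Without EUC3, EPL1 and SUC3, edgeR gave -1.45 with an adjusted p of 0.000175 and also called IL23A, then among 4 genes. Without the filter on low counts, edgeR called both IL12B (-1.22, adjusted p = 0.000259) and IL23A (-1.40, adjusted p = 1.22e-14). These 2 p-values may take little account of each gene's own spread between libraries, so they are not comparable with those of the filtered fit. With the filter the value was -1.22 for IL12B (-1.87 to -0.58, edgeR adjusted p = 0.9995), -0.57 for EBI3 (-0.99 to -0.14, edgeR adjusted p = 1) and -0.46 for IL27 (-2.04 to 1.13, edgeR adjusted p = 1).

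**Figure D4:**
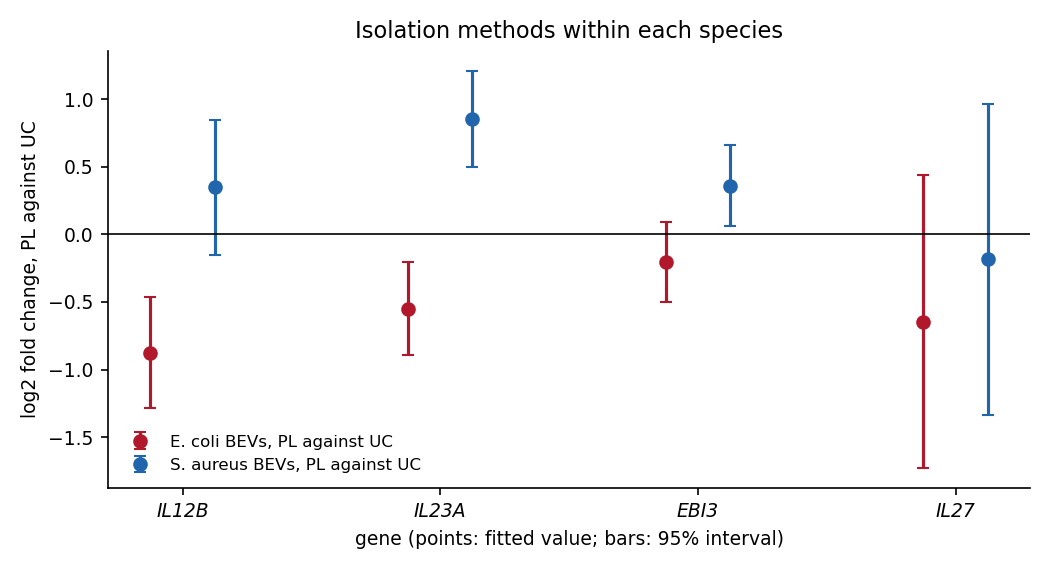
Log2 fold change of PL against UC BEVs for the 4 testable subunit genes within each species, with 95% intervals from the fit to all 15 libraries. The *E. coli* and *S. aureus* intervals do not meet for IL12B and IL23A (-0.55 and 0.85 in IL23A), and for IL27 both include 0. The intervals are not adjusted for the number of genes. With the filter, edgeR called neither IL12B (adjusted p = 0.9995) nor IL23A (0.0939) in the contrast of methods between species.

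The other genes of the pathway were read from lists by role, with DEGs in the mean of the BEV groups against NC (of all tested genes, 8.99% were up-regulated and 5.13% down-regulated, with a median log2 fold change of -0.002). The lists were chosen with earlier results of these data known, so counts and medians per list are a description only. Of 5 receptor chains, 4 could be tested, with a median log2 fold change of 1.01, and 2 were up-regulated. IL27RA, the chain specific to IL-27, rose from 24.9 ± 1.68 CPM in NC (SD, n = 3) to 78.9 ± 3.19 in EUC and 67.4 ± 3.13 in SUC. Its log2 fold change was 1.56 (SE 0.073, adjusted p = 1.26e-11 by edgeR). IL6ST, the signalling chain gp130 that IL-27 shares with IL-6, rose by 1.38 (SE 0.108, adjusted p = 1.17e-08). The chains of the IL-12 receptor were not DEGs: IL12RB2 differed by 0.64 (adjusted p = 0.00166) and IL12RB1, also used by IL-23, by -0.22 (adjusted p = 0.0822). IL23R, the specific chain of the IL-23 receptor, held at most 7 reads in a library and was not tested.

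STAT4, the factor through which IL-12 signals in T and NK cells, rose by 5.06 (SE 0.183, adjusted p = 4.48e-13 by edgeR). It held 6, 8 and 9 reads in the NC libraries and from 121 to 426 in stimulated ones. STAT4 was also a DEG between the species, 1.27 log2 units higher with *E. coli* BEVs (adjusted p = 3.88e-07 by edgeR), as were 0.663% of all tested genes. Its level was 25.8 ± 1.67 CPM in EUC (SD, n = 3), 23.4 ± 0.713 in EPL, 9.32 ± 1.95 in SUC and 11.2 ± 0.963 in SPL, so that species did not overlap. DUSP1, which encodes a phosphatase of MAP kinases, was a DEG between EUC and SUC (1.07, adjusted p = 0.000374 by edgeR, beside 0.733% of all tested genes that were higher in EUC) but had an adjusted p of 0.168 between EPL and SPL. The test of that difference between the methods gave -0.56 (PL minus UC, SE 0.216, unadjusted p = 0.0187, edgeR adjusted p = 1). Over both methods DUSP1 was 0.79 log2 units higher with *E. coli* BEVs, under the fold threshold. Leaving out 1 library at a time gave edgeR adjusted p-values of 9.18e-05 to 0.00102 for that value.

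Of 17 transcription factors known at the subunit promoters, all tested and with a median log2 fold change of 1.11, 9 were up-regulated and 1 was down-regulated. NFKBIZ, an inducible nuclear partner of NF-kappa B, rose by 4.32 (SE 0.096) and NFKB2, which encodes the p100/p52 subunit of NF-kappa B, by 4.07 (SE 0.102). IRF8, a factor known to activate IL12B, fell by 1.68 (SE 0.063), from 1030 to 1063 CPM in NC to 265 to 425 CPM in stimulated libraries. Among the restraints on these genes or their signal, 9 of 10 could be tested, with a median log2 fold change of 3.69, and all 9 were up-regulated. TNFAIP3, which encodes the NF-kappa B inhibitor A20, rose by 5.21 (SE 0.112) and ZC3H12A, an RNase that degrades cytokine mRNAs, by 4.51 (SE 0.087). IL10, an inhibitor of IL12B expression, had no read in NC and 1 to 8 reads in each stimulated library and was not tested. Each named value in this paragraph passed the threshold for DEGs with edgeR.

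Of 10 sensors of bacterial lipids and their adaptors, 8 could be tested, with a median log2 fold change of 1.09, and 5 were up-regulated. MYD88, the adaptor of most Toll-like receptors, rose by 1.81 (SE 0.073) and TLR1, a partner of TLR2 in sensing lipoproteins, by 1.55 (SE 0.164), both past the threshold with edgeR. LY96, the MD-2 partner of TLR4, held at most 4 reads in a library. Of the T and NK cell products that IL-12 and IL-23 are known to drive, IFNG, IL17A and IL22 had no read in any library and IL17F had 3 reads in SUC and 1 in SPL.

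**Figure D5:**
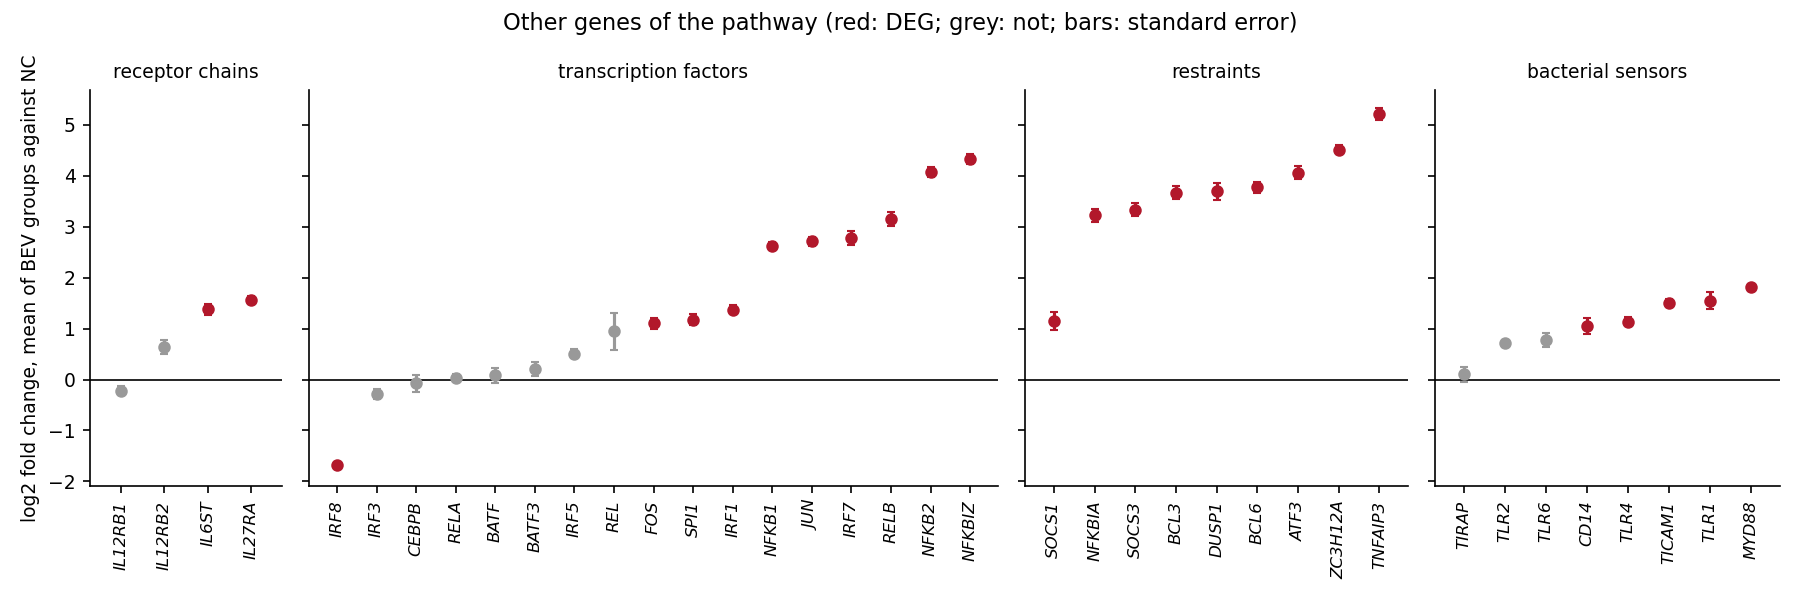
Log2 fold change of the tested genes of 4 role lists, mean of the BEV groups against NC, with standard errors; red points are DEGs and grey points are not. All 9 tested restraints lie above 1, and IRF8 lies at -1.68, below every other gene plotted.

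The tested markers of dendritic cells, which also make IL-12 and IL-23, were higher in the BEV groups than in NC. Of 5 markers (CD1C, CLEC9A, CLEC10A, LAMP3 and CCR7), 4 could be tested and all 4 were up-regulated in the mean of the BEV groups. Their summed level was 1.02 to 1.71 CPM in NC, 54.1 to 57.4 in EUC and 51.0 to 56.8 in EPL, beside 14.9 to 21.7 in SUC and 24.0 to 27.2 in SPL. LAMP3, a marker of mature dendritic cells, made up most of that sum, with 44.4 to 48.2 CPM in EUC and 9.94 to 15.6 CPM in SUC. CCR7, the chemokine receptor of migrating dendritic cells, had no read in NC and 4 to 29 reads in stimulated libraries. LAMP3 (1.60, adjusted p = 3.71e-07 by edgeR) and CCR7 (1.64, adjusted p = 0.00139) were DEGs between the species, higher with *E. coli* BEVs. The other 2 tested markers, CD1C (0.63) and CLEC10A (0.40), were not DEGs between the species. CLEC9A, a defining marker of 1 dendritic cell type, held 2 reads in NC, 5 in EUC, 2 in EPL and none in SUC and SPL, too few in any group for a comparison. The part of these markers in the subunit values was not tested.

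The genes whose pattern was most like that of each subunit were found by the root mean square difference of log2 CPM, centred on each gene's mean, over the 15 libraries. The 14525 other tested genes with a mean of at least 1 CPM were compared. For IL12B these were ETV3L (0.376), VCAM1 (0.456) and LAMP3 (0.468), beside a median of 2.52 over all genes. For EBI3 they were IL1B (0.201), which rose from 2.15 CPM in NC to 1733 in EUC and 599 in SUC, TNFAIP6 (0.259) and SLAMF7 (0.301), beside a median of 3.57. For IL23A they were IL33 (0.304), PXDC1 (0.319) and PGLYRP2 (0.324), beside a median of 2.15. For IL27, among 14526 genes, they were GRIK5 (0.429), SSC4D (0.453) and RAB13 (0.466), beside a median of 0.74. The likeness is a description over libraries that share their groups.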

How the data were processed

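RNA was isolated with Trizol, and paired-end reads of NEB Next Ultra libraries were aligned by the authors to hg38 with HISAT2 2.1.0. The authors deposited unnormalized whole-number counts per gene. The processing notes also list featureCounts, StringTie 1.3.3b and DESeq 1.28.0 without roles. For the counting step, annotation release and strand setting were not given in the sources used here. Libraries were grouped by their deposited labels.

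The counts were analysed with edgeR 4.0.16 in R 4.3.3. Of 60286 genes, filterByExpr kept 17198. TMM normalization and a quasi-likelihood model without a replicate block were used on all 15 libraries (median depth 15831655 reads), as the methods of the paper name no block. DESeq2 1.42.0, which the paper used, was an alternative. CPM are TMM-normalized, and log2 CPM used a prior count of 2. The members, lists and comparisons were chosen with earlier results of these data known. Named genes are the members, all receptor chains, up to 2 DEGs with the largest rise and fall per list, listed DEGs between species, the 3 genes most like each tested member, and overlapping genes. LY96, IL10, the T and NK cell products and cell type markers, as well as CD14 and REL, were named besides. The counts over the kinases and STAT factors of the receptors are not reported here. The fit was tested on simulated data.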

Additional observations from a re-analysis of the deposited data

Results flagged for a closer look

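For IL23A, DESeq2 called the difference between isolation methods unlike in the species, whereas edgeR with the filter did not. The contrast also compares the UC and PL species ratios of IL23A (5.18 and 1.96). IL23A was selected on its species difference, so the test may not be independent of that choice. The *E. coli* value (EPL minus EUC) minus the *S. aureus* value (SPL minus SUC) was -1.40 log2 units in edgeR, where the adjusted p was 0.0939, and -1.41 in DESeq2, where it was 0.000129. All 3 EPL libraries were below all 3 EUC libraries and all 3 SPL libraries above all 3 SUC libraries, a description without the share over all genes. Leaving out 1 library at a time gave -1.53 to -1.20 with edgeR adjusted p-values of 0.0475 to 0.525.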

How the results depend on the processing

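The 3 calls in each BEV group and in the mean of the BEV groups against NC held under RLE size factors, without the filter, with DESeq2, without any 1 library, without EUC3, EPL1 and SUC3 together, with only the 2 groups compared in the fit (single groups), and without a fold threshold. For the difference of methods between species, 0 members were called in edgeR, and also 0 without any 1 library. With RLE size factors 0 were called (IL23A, edgeR adjusted p = 0.0844), as with only the groups of the contrast in the fit (IL23A, 0.303). DESeq2 called 1, and edgeR called 1 without the 3 libraries that stood apart, an alternative chosen after seeing the data. Without the filter on low counts, edgeR called 2, among 4 genes in all. These were IL12B (adjusted p = 0.000259) and IL23A (adjusted p = 1.22e-14), under the limit given for that fit. The cause was not tested. IL27 changed sign between SPL and SUC without SUC3 (0.23), without SPL3 (0.27) and without the 3 libraries (0.232), within a range of -0.785 to 0.273, and in the difference of methods without SPL2 (0.141; range -0.917 to 0.141), never as a DEG. CD14 and TRAC fell below the DEG threshold, and REL rose above it, when single libraries were left out. Over 30 same-numbered pairs, deviations from group means correlated from -0.452 to 0.525 (mean 0.0095), and 7 of 15 libraries correlated best with their own number. These values show no clear pairing by number but, with so few libraries, cannot exclude it. A replicate block changed no call of a member: under it, IL23A had -1.42 (adjusted p = 0.13) in the difference of methods. IL12B in NC, IL27 and IL12A are limited by reads of 1 to 19 per library.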
